A study of Saccharomyces cerevisiae with 31 samples.

Results

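The mitochondrial genome of budding yeast, *Saccharomyces cerevisiae*, was examined through every row whose systematic identifier starts with Q0 in the authors' deposited tables of genes changed in 3 mutants of SPT6. Such rows numbered 8 of the 694 listed for spt6-1004, 0 of the 23 listed for spt6-S8A and 0 of the 1 listed for spt6-S8E. All 3 tables compare a mutant with wild type (WT). The 4 genotypes each had 3 RNA libraries, made from bulk cultures grown in rich glucose medium at 30 °C and collected at an optical density of 1. Ribosomal RNA was depleted without selecting polyadenylated RNA, and the libraries kept the strand. The spt6-1004 allele is a temperature-sensitive allele with an in-frame deletion in Spt6, the spt6-S8A allele replaces serines that casein kinase 2 phosphorylates with alanine, and the spt6-S8E allele replaces them with glutamate. The series asks what this phosphorylation does for Spt6. The tables hold the authors' summary for each gene that passed their threshold, and no value per library was used here. In a bulk culture, a change in the number of cells that hold an RNA and a change in the RNA per cell cannot be told apart.

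The yeast mitochondrial genome encodes the membrane core of the respiratory chain and of the ATP synthase, with 1 protein and the rRNAs of the ribosome that translates them. It is transcribed inside the organelle by Rpo41, a single-subunit polymerase related to those of bacteriophages, with its partner Mtf1, and not by RNA polymerase II, with which the histone chaperone Spt6 travels. COX1 and COB contain introns, several of which hold open reading frames for maturases or homing endonucleases that are read through from the exons before them. COX1, ATP8 and ATP6 are cut from a shared primary transcript, whereas COX2 belongs to a separate transcript.

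In spt6-1004, mitochondrial RNAs did not all move in the same direction: RNA of the COX1 region and of ATP6 was higher than in WT, and that of COX2 was lower. COX1, the largest subunit of cytochrome c oxidase, was 4.14-fold higher in the authors' deposited table (95% interval 3.13 to 5.48). ATP6, the subunit of the ATP synthase that forms its proton channel together with the OLI1 ring, was 4.40-fold higher in the authors' deposited table (95% interval 2.65 to 7.28). COX2, the subunit of cytochrome c oxidase that receives electrons from cytochrome c, was 2.09-fold lower in the authors' deposited table (95% interval 1.39 to 3.14). These intervals come from the authors' standard errors (SE). They reflect the spread between libraries as modelled by the authors' test package, DESeq2, and not the spread measured for that gene alone. Whether the libraries came from separate cultures is not stated in the labels, so that spread may be technical.

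The annotation used, RefSeq assembly R64, holds 22 genes with Q0 identifiers, 19 of them protein coding. In spt6-1004, the authors' deposited table listed 7 of these higher and 1 lower. Among all 5668 genes adjusted in that comparison, 5.63% were listed higher and 6.62% lower. The 7 higher rows are not 7 observations, because 6 of them start at the same base and lie inside COX1. After overlapping genes were merged, the 22 genes formed 11 separate loci, of which 2 were higher and 1 was lower. With so few loci, and with COX1 and ATP6 on a shared transcript, the counts say little beyond these genes themselves.

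**Figure D1:**
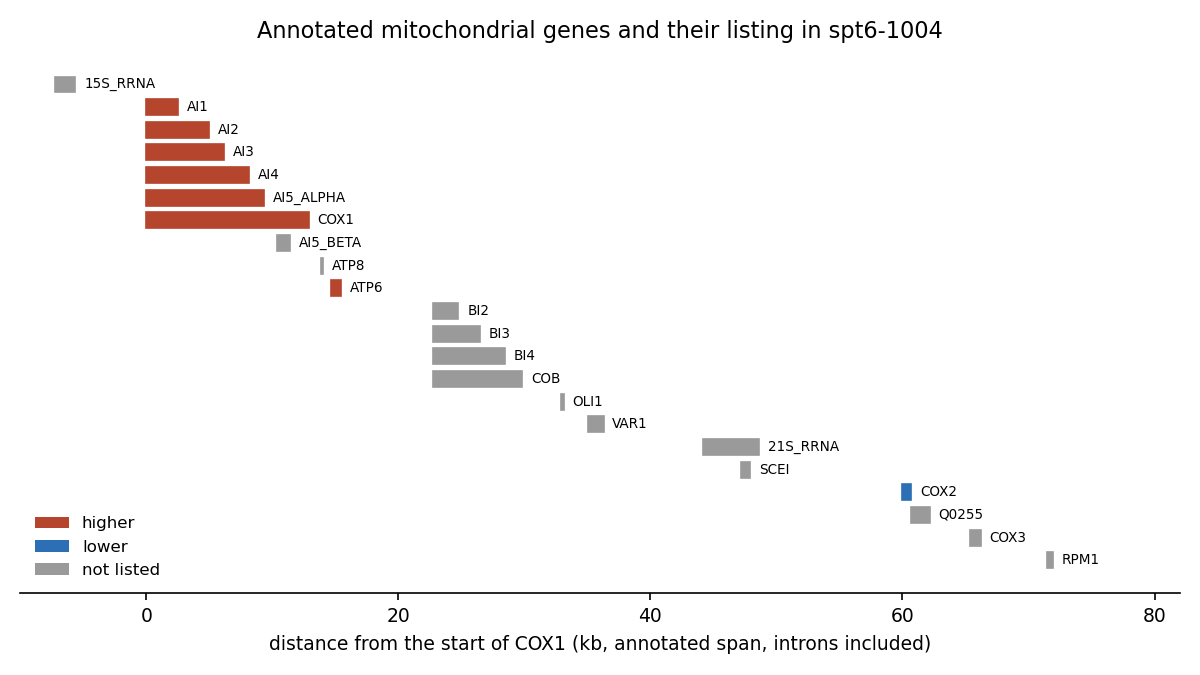
Annotated mitochondrial genes drawn to scale along the genome, with distance from the start of COX1 in kb on the horizontal axis and 1 bar per gene; red bars were listed higher in spt6-1004, the blue bar lower, and grey bars were not listed. The 7 red bars are the nested frames of COX1 and, downstream of them, ATP6, while the blue bar, COX2, lies 44491 bp beyond the end of ATP6.

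COX1 (Q0045) spans bases 13818 to 26701 of the mitochondrial chromosome, introns included. Its log2 fold change in the authors' deposited table was 2.05 (SE 0.21, DESeq2 with Benjamini-Hochberg adjustment, adjusted p = 6.89e-21), with a base mean of 218. The base mean is the authors' average of a gene over all 12 libraries, in a unit not given in the sources used here. By p-value, COX1 stood at position 24 of the 694 listed genes. The median log2 fold change of the 319 genes listed higher was 1.64 in the same table, just under the 95% interval of COX1, 1.65 to 2.45.

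Of 6 annotated intron frames inside COX1, 5 were listed, all of them higher. AI1 and AI2 are frames of the group II introns, which encode reverse transcriptases with maturase activity. AI3, AI4 and AI5_ALPHA lie in group I introns and encode DNA endonucleases. Each of these 5 rows begins with COX1 exon sequence and ends in its own intron. Their spans, introns included, therefore contain each other in turn. In the authors' deposited table AI1 (Q0050, bases 13818 to 16322) was at a log2 fold change of 1.64 (SE 0.25, adjusted p = 1.33e-09, DESeq2). AI2 (Q0055, to base 18830) was at 1.83 (SE 0.23) and AI3 (Q0060, to base 19996) at 1.86 (SE 0.23) in the authors' deposited table. AI4 (Q0065, to base 21935) was at 2.07 (SE 0.21) and AI5_ALPHA (Q0070, to base 23167) at 2.10 (SE 0.21) in the authors' deposited table. The 6 nested values, COX1 included, lay within 0.45 of each other on the log2 scale, against SEs of 0.21 to 0.25, and the wider spans had the larger changes, except that COX1 itself was just under AI4 and AI5_ALPHA. Because each frame shares bases with the next, this order was not tested.

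**Figure D2:**
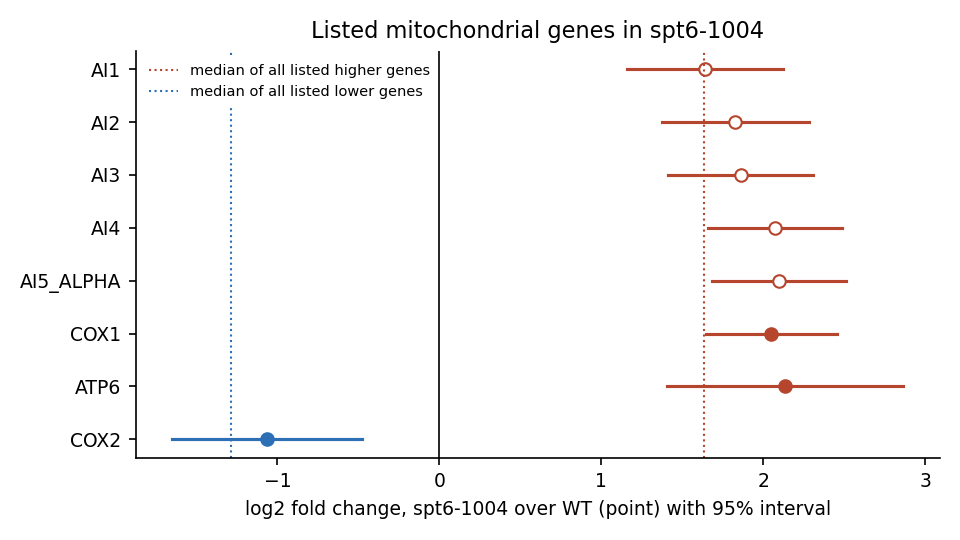
Log2 fold change of spt6-1004 over WT on the horizontal axis for the 8 listed mitochondrial genes, with 95% intervals from the authors' standard errors; filled points are COX1, ATP6 and COX2, open points are intron frames inside COX1, and dotted lines are the medians of all genes listed higher (1.64) and lower (-1.29). The 7 higher rows lie between 1.64 and 2.14, and COX2 lies at -1.06.

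The levels of the nested rows followed their spans. The base mean in the authors' deposited table was 105.2 for AI1, 145.8 for AI2, 153.6 for AI3, 190.1 for AI4, 194.0 for AI5_ALPHA and 218 for COX1, the same order as the 2505, 5013, 6179, 8118, 9350 and 12884 bp that they span. Across these 6 overlapping rows Spearman's rho between span and base mean was therefore 1, which is a description, since the wider spans contain the narrower ones and the rows may share reads. AI1, with 19.4% of the span of COX1, had 48.2% of its base mean. Taken per kb of span, the base mean was 42.0 for AI1 and 16.9 for COX1. If every row counted all reads in its span, the stretch from the end of AI1 to the end of AI2 added 16.2 per kb, that from AI2 to AI3 6.65, that from AI3 to AI4 18.8, that from AI4 to AI5_ALPHA 3.18, and the last stretch of COX1 6.79. On that assumption, which was not tested, the added base mean per kb was highest at the start of COX1 and uneven beyond it. The sources used here do not say whether introns were counted with exons, and the base mean may already be scaled for length. A sum over a row cannot tell spliced COX1 RNA from RNA that still holds an intron, so the share of unspliced RNA in either genotype was not measured.

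**Figure D3:**
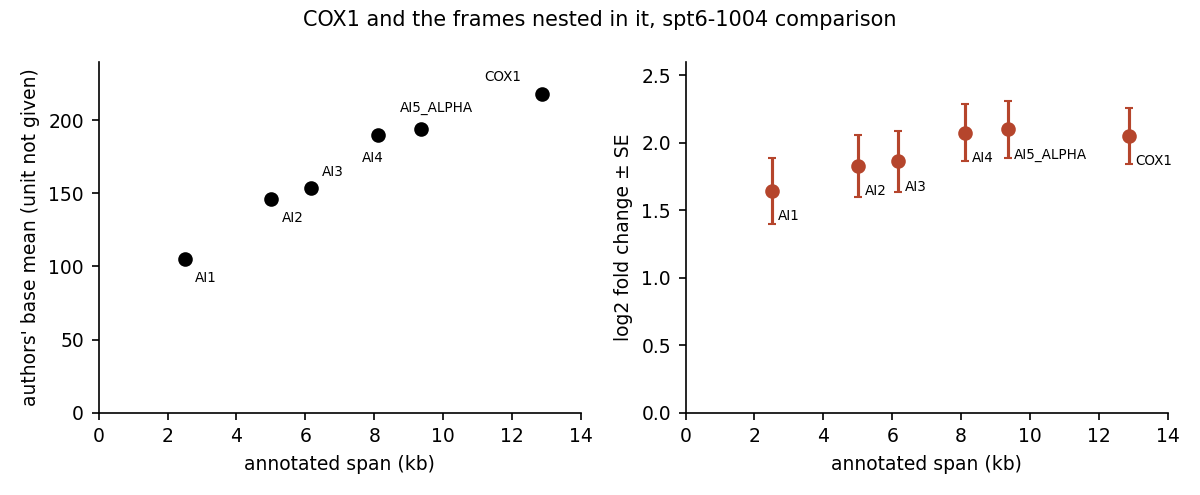
The authors' base mean (left, unit not given) and log2 fold change of spt6-1004 over WT with its standard error (right) against annotated span in kb, for COX1 and the 5 listed frames nested in it. The base mean rises from 105.2 for AI1 to 218 for COX1, and the log2 fold change lies between 1.64 and 2.10.

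The sixth annotated intron frame of COX1, AI5_BETA (Q0075, bases 24156 to 25255), lies in the part of COX1 beyond AI5_ALPHA and was not listed. ATP8 (Q0080), a small subunit of the ATP synthase, starts 964 bp after the end of COX1, is 147 bp long and was not listed either. The next gene on that transcript, ATP6 (Q0085, bases 28487 to 29266), starts 1785 bp after COX1. In the authors' deposited table it was at a log2 fold change of 2.14 (SE 0.37, adjusted p = 3.46e-07, DESeq2), with a base mean of 17.2. The log2 fold change of ATP6 was 0.09 above that of COX1. Its interval was -1.05 to 1.22 when the largest error that the SEs of both rows allow is used. The change of ATP6 was therefore not distinguishable from that of COX1, and differences of up to that size in either direction remain possible. The values of ATP8 and AI5_BETA are not known, because the tables hold only genes that passed.

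COX2 (Q0250, bases 73758 to 74513) was the only mitochondrial gene listed lower. In the authors' deposited table it was at a log2 fold change of -1.06 (SE 0.30, adjusted p = 0.00502, DESeq2), with a base mean of 54.8. It stood at position 413 of the 694 listed genes by p-value, and its decrease was smaller than the median of the 375 genes listed lower, -1.29. Under the stricter Bonferroni adjustment over the same 5668 genes COX2 is no longer called, whereas the 7 higher rows are. The log2 fold change of COX1 was 3.11 above that of COX2. The interval with the largest error that the SEs allow was 2.12 to 4.10. For ATP6 the log2 fold change was 3.20 above that of COX2, with an interval of 1.89 to 4.51. Because these genes were listed in opposite directions, both differences had to be positive and add no support for the directions. Other scalings of the libraries were not run, so the direction of each gene rests on the authors' processing. The base means show no division by unequal size factors within DESeq2, and whether depth was corrected before that step is not known. The last 19 bp of COX2 overlap Q0255, a frame downstream of it that resembles an intron maturase, and reads there can belong to either; Q0255 was not listed.

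The other 14 annotated Q0 genes were not listed in spt6-1004. They include COB, the cytochrome b of complex III, with its 3 intron frames BI2, BI3 and BI4, and COX3, the remaining mitochondrially made core subunit of cytochrome c oxidase. OLI1, the ring-forming subunit of the ATP synthase, and VAR1, a protein of the mitochondrial ribosome, were not listed. Neither were the 15S and 21S rRNAs, the endonuclease gene SCEI in the intron of the 21S gene, or RPM1, the RNA part of mitochondrial RNase P. The libraries were depleted of rRNA, and whether that removed the mitochondrial rRNAs is not known here. The 24 annotated mitochondrial tRNA genes carry other identifiers, and 0 of them were listed. A gene that entered the adjustment and was not listed had a p above 0.00613, so its Wald statistic (the log2 fold change over its SE) was no larger than 2.74 in either direction. For comparison, the Wald statistics of COX1, ATP6 and COX2 were 9.94, 5.75 and -3.56 in the authors' deposited table. Being unlisted thus allows sizeable changes in genes of low level, and it is not known which of the 14 entered the adjustment.

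Set among the listed nuclear genes, the overlapping COX1 rows lay at a level where fewer genes were listed higher than lower. Over all levels, 319 listed genes were higher and 375 lower. How many genes were tested at each level is not known. Of nuclear genes listed for spt6-1004 with a base mean of at least 100, 12 were higher and 31 lower. Between the base means of AI1 and COX1 there were 7 higher and 19 lower nuclear genes, and 3 of these 7 rose more than COX1. With a base mean of at least 100, the 6 nuclear genes that rose more than COX1 were SER3 and the chaperone genes SSA3, HSP26, SSA4, HSP82 and HSP104. At the level of COX2, with base means from 50 to 60, nuclear genes were higher in 11 cases and lower in 25, and 16 of those 25 fell more than COX2. Near ATP6, with base means from 15 to 20, 34 nuclear genes were higher and 43 lower. Base mean includes the spt6-1004 libraries and thus depends in part on the change itself.

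**Figure D4:**
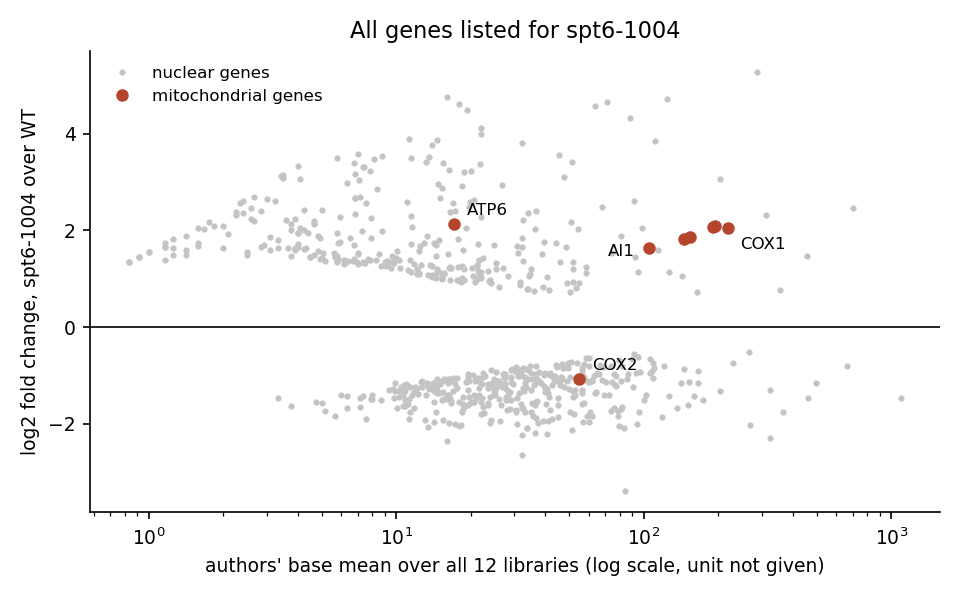
Log2 fold change of spt6-1004 over WT against the authors' base mean over all 12 libraries (log axis, unit not given) for the 694 listed genes, with the 8 mitochondrial genes in red and nuclear genes in grey. The COX1 rows lie at base means of 105.2 to 218 in a region with 12 higher and 31 lower nuclear genes at 100 or more, and COX2 lies among the lower genes.

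Nuclear genes that serve mitochondrial gene expression and the respiratory chain were mostly not listed in spt6-1004. Across 11 lists with 194 annotated genes, the authors' deposited table had 1 higher and 1 lower, 0.515% in each direction. Beside this, 5.63% were higher and 6.62% lower among all genes adjusted. How many of the 194 entered the adjustment is not known, so these shares are not over like sets. The lower gene in the authors' deposited table was COX5A, the main aerobic form of subunit 5 of cytochrome c oxidase, at a log2 fold change of -1.34 (SE 0.39, adjusted p = 0.00807, DESeq2). It was the single listed gene among the 9 nuclear subunits of that enzyme, 11.1% beside the 6.62% of all genes listed lower, and a count of 1 shows nothing about the group. The higher gene in the authors' deposited table was STF2, which encodes a stabilising factor of the ATP synthase and its inhibitor, at a log2 fold change of 1.54 (SE 0.49, adjusted p = 0.0173, DESeq2) with a base mean of 5.58. None of the 9 nuclear subunits of complex III or the 14 of the ATP synthase was listed, nor were the 9 electron carrier genes, which include those of succinate dehydrogenase and cytochrome c. RPO41, MTF1 and the other 7 genes for mitochondrial transcription and RNA turnover, such as the RNA-degrading SUV3 and DSS1, were not listed. The same held for 8 genes of mitochondrial DNA maintenance, 10 of intron splicing, among them MRS1, CBP2 and NAM2, and 17 translational activators, among them PET309 and MSS51 for COX1 and PET111 for COX2. The 31 genes for insertion and assembly of subunits and the 75 mitochondrial ribosomal protein genes had 0 listed members. The levels of unlisted genes are not known, and at a low level a change of the size seen for COX2 may not pass, so these zeros do not show that the genes were unchanged.

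In the phosphosite mutants no mitochondrial gene was listed. In spt6-S8A 23 of 431 adjusted genes were listed, 5.34%, and in spt6-S8E 1 of 5668, 0.0176%. How many mitochondrial genes had an unadjusted p under 0.05 there is not known from these DESeq2 tables. The 431 genes of spt6-S8A appear to be genes with base means over some minimum, as the lowest listed one was 32.6. COX1 and its 5 listed frames and COX2 lie above that level, so they would have been adjusted and missed the threshold, whereas ATP6 lies below it and may not have been adjusted. The Wald statistic of an unlisted gene among the 431 was no larger than 2.99 in either direction, and in spt6-S8E no larger than 4.29. For the 23 genes listed in both spt6-S8A and spt6-1004, the SE in spt6-S8A was 0.87 to 1.09 times that in spt6-1004. The spt6-S8E table shares only SER3 with the spt6-1004 table, with a ratio of 1.03, so the range from spt6-S8A was used for both mutants. These ratios come from listed genes only, and the SE of an unlisted gene may lie outside their range. If the SE of COX1 was no larger than the largest ratio gives, its change in spt6-S8A was at most 0.67 on the log2 scale. That is a 1.59-fold change. Under the same assumption the limit in spt6-S8E was 0.96, a 1.95-fold change.

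If the value of COX1 stood at these limits, it would still be 1.38 lower in spt6-S8A than in spt6-1004 and 1.09 lower in spt6-S8E. Any increase of COX1 in the phosphosite mutants would thus be below its deposited value in spt6-1004. This holds only if its SE was of the assumed size and its row was adjusted. No value of COX1 in these mutants is known. COX1 was examined because it was listed in spt6-1004, and was set at a bound for unlisted genes. These differences are therefore not a test of a difference between mutants. For COX2 the limits were 0.97 in spt6-S8A and 1.40 in spt6-S8E, against a decrease of 1.06 in spt6-1004. A decrease of COX2 as large as that in spt6-1004 could thus have gone unlisted in spt6-S8E, and a nearly equal one in spt6-S8A. For ATP6 in spt6-S8E the limit was 1.74, against 2.14 in spt6-1004. That gap, 0.40, is close to the SE of ATP6 in spt6-1004, 0.37, and shows no difference between the mutants. The SE ratios came from genes with base means of at least 32.6, and ATP6 lies below that at 17.2. Its SE in spt6-S8E may thus be larger than assumed, and the limit too low. The 3 comparisons share their WT libraries, so they are not independent.

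**Figure D5:**
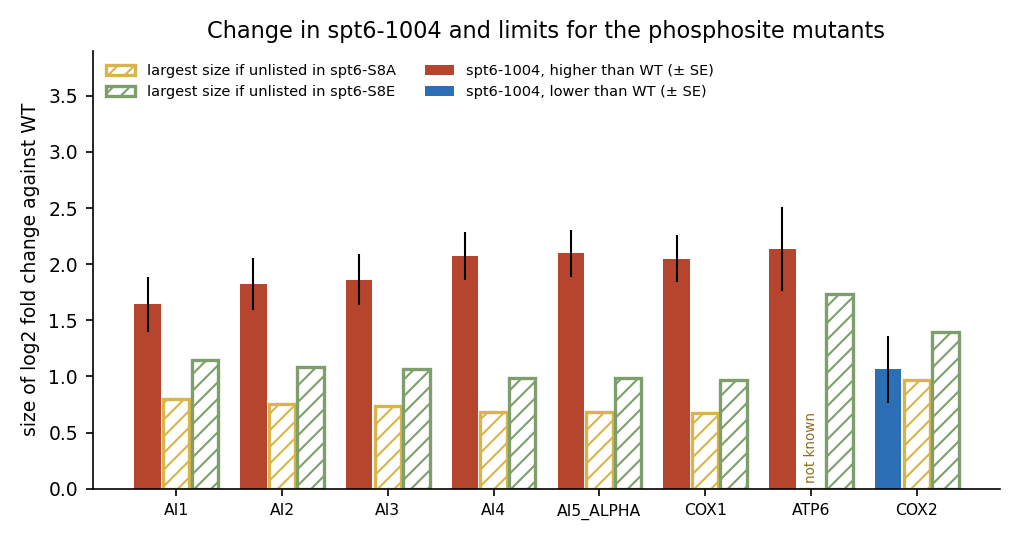
Size of the log2 fold change against WT on the vertical axis for each listed mitochondrial gene. Filled bars are the spt6-1004 values with standard errors (red higher, blue lower). Hatched bars are the largest size that an unlisted gene could have in spt6-S8A or spt6-S8E at the assumed standard error. For COX1 the limits are 0.67 and 0.96 against 2.05, while for COX2 they are 0.97 and 1.40 against 1.06, and the spt6-S8A limit of ATP6 is not known.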

How the data were processed

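The submitters' processing notes name build sacCer3 and, with no role or order, the aligner STAR 2.5.2b, the quantifier Salmon 0.8.1, the test package DESeq2 1.14.1, and the utilities bedtools 2.26, cutadapt 1.10 and SAMtools 1.3.1. Per the labels' protocols, ERCC spike-in RNA was added after rRNA depletion; its part in the scaling is not stated there. Per the file headers, the deposited tables for sense reads hold a base mean (a signal averaged over libraries), a log2 fold change and its error, the Wald statistic, and p-values before and after adjustment. The deposited Wald score was the log2 fold change over its error in all 694, 23 and 1 rows. The base mean times 12 was whole in all rows (tolerance 1e-06), which an average of counts divided by unequal size factors would not be. Unequal size factors were thus not applied within DESeq2, and whether and how the libraries were scaled before that step is not known. Depth per library is unknown, and values per library were not analysed here. Another 19 chromatin immunoprecipitation and input samples were not analysed here.

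How many genes entered each adjustment was worked back from the deposited p-values and the Benjamini-Hochberg formula, and recomputed adjusted p-values equalled the deposited ones in every row; for spt6-S8E this holds by construction. Intervals are 95% normal intervals from the authors' standard errors; for a difference between genes of the same libraries, both standard errors were added, the largest error possible. Limits for unlisted genes are the largest Wald statistic that misses an adjusted p of 0.05 times the assumed standard error, and do not hold for a row left unadjusted as an outlier. The authors' adjustment is Benjamini-Hochberg over all genes they tested. Every listed Q0 gene is named; in nuclear lists, listed members with the largest changes are named. The members and lists were chosen with earlier results of these data known. Names and coordinates came from RefSeq R64 (the same assembly as sacCer3), to which 689 of 694 identifiers matched, all Q0 ones among them. Sequences were not used here. Alternatives were an adjusted p under 0.01, a log2 fold change of at least 1, base means of at least 10 or 100, merging overlapping rows, Bonferroni adjustment and a larger standard error for limits. Python 3.11.15, pandas 2.3.3, numpy 2.4.6, scipy 1.17.1 and matplotlib 3.10.9 were used.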

Additional observations from a re-analysis of the deposited data

How the results depend on the processing

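Merging overlapping rows turned the 7 mitochondrial rows listed higher in spt6-1004 into 2 loci and left the 1 lower. Bonferroni adjustment kept 7 higher and 0 lower rows, as COX2 was lost. At a base mean of at least 100 there were 6 higher and 0 lower rows, from 1 higher and 0 lower loci, since ATP6 and COX2 lie below that level. At an adjusted p under 0.01, a log2 fold change of at least 1 or a base mean of at least 10, all 8 mitochondrial rows stayed listed. For the 11 nuclear lists, the 1 higher gene, STF2, gave a count of 0 at an adjusted p under 0.01 and at base means of at least 10 or 100, and the 1 lower gene, COX5A, gave 0 at a base mean of at least 100. Adjusting spt6-S8A over 5668 genes says nothing about its 0 mitochondrial rows, since a stricter adjustment adds none. The limits with the larger standard error were added after seeing the data. Leaving out replicates was not run, and depth cannot be weighed, because the tables used hold no values per library. No paired analysis was possible because of the same lack.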
